A study of Homo sapiens with 19 samples.

Results

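The response of the human colorectal carcinoma line WiDr to GSK715 was measured here by long-read sequencing of full-length cDNA on Oxford Nanopore Technologies (ONT) flow cells. The members are the 4 ONT libraries among the 19 libraries of the series, chosen by their labels. In 2 of them the cells had received GSK715 (GSK3368715, which the labels call a PRMT1 inhibitor) at 5 uM for 96 h. The other 2 came from cells kept with the solvent DMSO for the same 96 h. WiDr is an established line derived from a human colorectal adenocarcinoma, so all results describe 1 line. All 4 libraries were made from poly(A) RNA and read on a PromethION. The 6 short-read libraries of the same line and treatment, 3 a group, are used below as a comparison. Nothing states whether the libraries of a group came from separate cultures, so the p-values measure only the spread between these libraries, which may be technical.

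PRMT1 is the main enzyme of the type I protein arginine methyltransferases, which place asymmetric dimethylarginine on histones and on many RNA-binding proteins. GSK3368715 is an inhibitor of type I enzymes. Arginine methylation of splicing factors and hnRNP proteins is known to bear on how transcripts are spliced, exported and translated. Each long read of full-length cDNA comes from a single transcript molecule, whereas fragmented short-read libraries draw more reads from longer transcripts. Reverse transcription and the selection of full-length reads still depend on transcript length.

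The libraries held 5237781 and 4498711 reads with DMSO and 5122996 and 4876068 with GSK715. Between 82.7% and 84.8% of these reads were classed as full-length. The gene table held between 1449698 and 1667813 estimated counts per library, and between 15121 and 15630 genes with at least 10 counts. The mean length of the full-length reads was 1175 and 1206 bases with DMSO and 1095 and 1160 bases with GSK715. Both GSK715 libraries were therefore shorter than both DMSO libraries, at an exact two-sided permutation p of 0.333, which is the smallest p that 2 libraries against 2 allow. The cells carried the epithelial markers of a colorectal line: EPCAM, an epithelial adhesion molecule, had 512 to 603 counts per library, and KRT8, a keratin of simple epithelia, had 8714 to 12449. Markers of other cell types were low. COL1A1, a fibroblast collagen and the marker that entered the test, had 7 to 15 counts, and PECAM1, an endothelial marker, had 1 to 5. COL1A2, COL3A1, CDH5 and ALB had 0 counts in all 4 libraries, VIM and PTPRC had at most 1, and ACTA2 had 11, 7, 2 and 2. CDX1 and CDX2, transcription factors of the intestine, were too low to test, so the intestinal identity of the cells was not shown by these factors. In bulk RNA, fewer cells of a type and less RNA per cell cannot be told apart.

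GSK715 changed 1397 of 15877 genes tested (8.8%) by edgeR's quasi-likelihood test with Benjamini-Hochberg adjustment at 0.05. Of these, 681 were higher (4.29% of genes tested) and 716 were lower (4.51%). At least 2-fold differences made up 341 of the increases and 251 of the decreases. The median log2 fold change over all genes tested was 0.003. Scaling by library totals alone moved that median to -0.052 and the split to 592 higher and 991 lower genes, so that 37.4% of calls were increases in place of 48.7%. The number of calls depended strongly on single libraries: it was 464 (236 higher, 228 lower) without the first DMSO library and 591 (284 higher, 307 lower) without the second. DESeq2, run on all IDs with any count and without the low-count filter, called 229 genes. Of these, 225 were also called by edgeR with the same sign. This setting differed from the main fit in both tool and filter. A set of 173 genes (88 higher, 85 lower) was called with the same sign under DESeq2, under every other filter and scaling tried on all IDs, and with each library left out in turn. Calls named below as held in every setting are those with the same sign in every alternative that gave the gene a value.

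**Figure D1:**
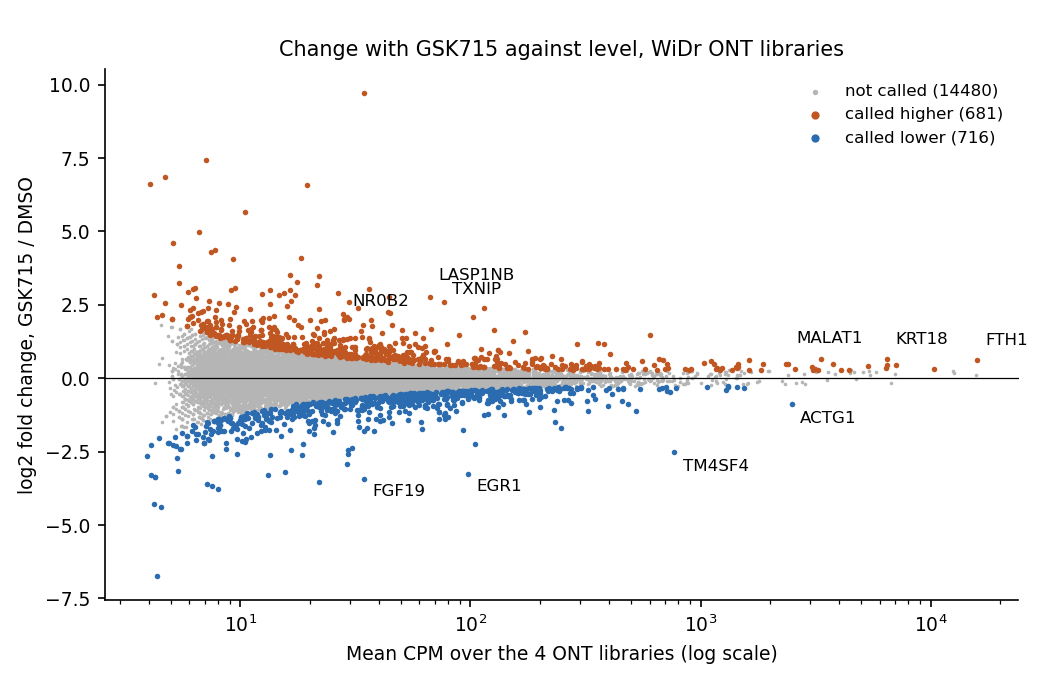
Log2 fold change, GSK715 minus DMSO (vertical axis), against the mean level over the 4 libraries in counts per 1000000 counts of the library (CPM) on a log axis (horizontal axis), 1 point per gene or ID tested. Orange and blue points are the 681 higher and 716 lower genes; the points farthest from 0 at low levels include IDs with a group at 0, whose fitted value depends on the prior count.

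LASP1NB and TXNIP were among the 10 largest increases of called genes with a symbol that averaged 10 CPM or more and whose groups did not overlap. LASP1NB (chr17:38925168-38929384, plus strand, GRCh38) had 15.4 and 18.5 counts per 1000000 (CPM) with DMSO and 119 and 114 with GSK715, a log2 fold change of 2.78 (SE 0.18, adjusted p = 2.8e-16). TXNIP (chr1:145992435-145996600, minus strand), which binds thioredoxin and restrains glucose uptake, had 16.6 and 27.4 CPM against 130 and 133, a log2 fold change of 2.59 (SE 0.17, adjusted p = 7e-16), although it fell in short reads. In both the lower GSK715 library was several-fold above the higher DMSO library. NR0B2, the nuclear receptor SHP that represses bile acid synthesis genes, rose from 12.9 and 8.91 to 46.5 and 44.2 CPM. PRSS2, an anionic trypsinogen, rose from 17.8 and 11.7 to 52.5 and 66 CPM. The noncoding DGCR11 rose from 8 and 13 to 55.2 and 53.8 CPM. These 5 increases held in every setting.

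The largest decrease by the same rule was of FGF19 (chr11:69698232-69704642, minus strand), an intestinal hormone that restrains bile acid synthesis in the liver. It had 59.1 and 67.9 CPM with DMSO and 5.39 and 6.13 with GSK715, a log2 fold change of -3.44 (SE 0.27, adjusted p = 2.3e-13). TM4SF4 (chr3:149473974-149503281, plus strand), a membrane protein of the L6 family, had 1327 and 1291 CPM against 237 and 224, a log2 fold change of -2.51 (SE 0.097, adjusted p = 8.6e-25). Its groups were far apart beside the gap between its replicates. NTSR1, the receptor of the gut peptide neurotensin, fell from 46.1 and 53.5 to 8.76 and 9.53 CPM. C7orf50 fell from 170.4 and 176 to 35 and 38.1 CPM, and GALNS, a lysosomal sulfatase, from 28.3 and 33.6 to 5.39 and 7.49 CPM. LRP11 fell from 57.8 and 45.3 to 4.04 and 9.53 CPM and AQP5-AS1 from 52.9 and 49.4 to 14.1 and 5.44 CPM, both uncertain because their exons overlap another gene's. These 7 decreases held in every setting, and all but AQP5-AS1 were also called lower in short reads. There AQP5-AS1 had 0.711 CPM with DMSO and 1.02 with GSK715, a log2 fold change of 0.52 that did not pass. Its ONT minus short-read difference was -2.95 (SE 0.49, adjusted p = 0.00013 in the joint fit described below). Of the 20 genes chosen by size of change under this rule, 15 held in every setting. The increases of LINC01963 and NDRG2 were not called by DESeq2 or without the low-count filter. The decreases of AGMO and BTBD19 were lost without that filter, and the increase of PON3 in 5 settings.

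**Figure D2:**
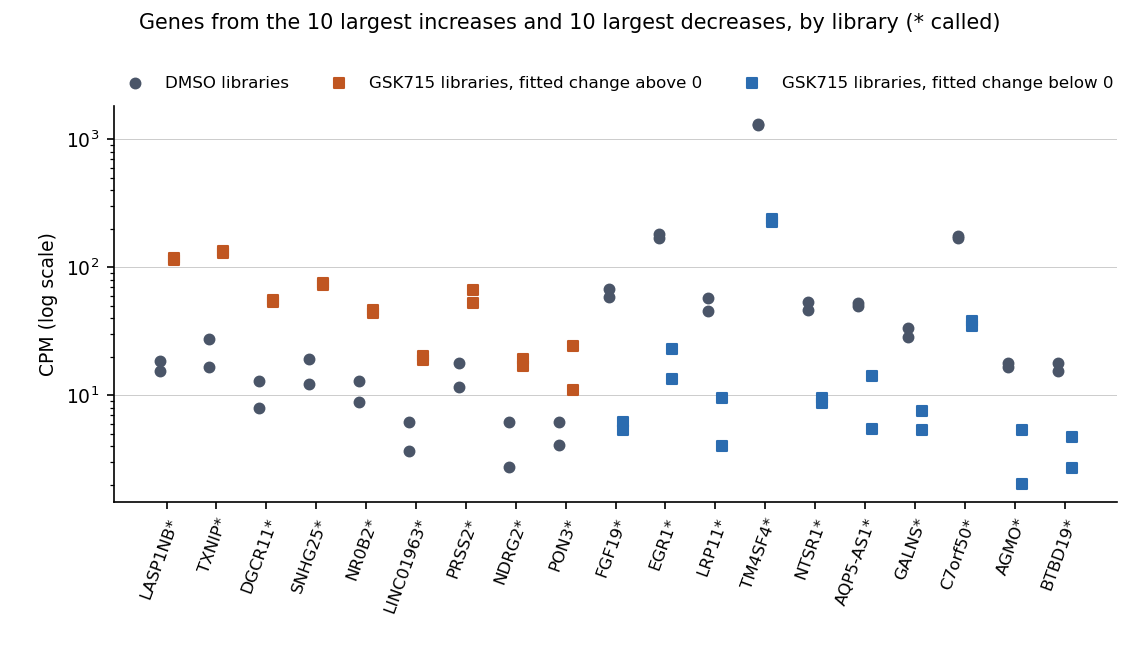
Level of genes from the 10 largest increases and 10 largest decreases in each library, in CPM on a log axis, with the 2 DMSO and the 2 GSK715 libraries as separate symbols. For every gene shown both GSK715 libraries lie on the same side of both DMSO libraries, as the rule for choosing them required.

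Among genes with many counts, ACTG1, a cytoplasmic actin, fell from 3275 and 3172 to 1742 and 1752 CPM, a log2 fold change of -0.88 (SE 0.091, adjusted p = 4.2e-10), and held in every setting. KRT18, the keratin that pairs with KRT8, rose from 5044 and 4933 to 8375 and 7539.8 CPM (log2 fold change 0.67) and also held, though 16.3% of its exonic length overlaps another gene. KRT8 had 5968 and 5976 CPM against 8384 and 7962. LYZ, the antibacterial enzyme lysozyme, had 5437 and 5554 CPM against 7857 and 7069, with 34.0% exonic overlap. Both rose, and both calls were lost when either DMSO library was left out. FTH1, the ferritin heavy chain, rose from 12869.8 and 12096 to 20177 and 18400.2 CPM, with a call lost without the second DMSO library; it has many processed copies and 62.4% exonic overlap, so its level is uncertain. RPL10, a ribosomal protein gene with 55.5% overlap, had 9467 and 8981 CPM against 11916 and 10979.5 and rose by 0.31 on the log2 scale (adjusted p = 0.036). S100A11, a calcium-binding protein, fell from 1779 and 1653 to 1422 and 1318 CPM (log2 fold change -0.32), MIF, a cytokine gene with 61.9% overlap, from 1633 and 1539 to 1348 and 1229.9 CPM (-0.30), and TMSB4X, the actin-binding thymosin beta, from 1494 and 1424 to 1242 and 1128 CPM (-0.30). These 4 calls were lost when either DMSO library was left out and without the filter. RPLP1, with 12231 and 11472 CPM against 13988 and 12822 (adjusted p = 0.31), and RPL13A, with 11475 and 11325 against 14143 and 12895 (adjusted p = 0.12, 17.3% overlap), did not pass the test.

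The EGFR and MAPK pathway carries growth signals from receptor ligands such as AREG and EREG through the RAS, RAF, MEK and ERK kinases to immediate-early transcription factors, and ERK in turn induces the phosphatases and adaptors that shut it off. Of 22 listed genes of this pathway tested, 10 fell and none rose, where 4.51% of all genes fell, and the list's median log2 fold change was -0.50. DESeq2 called 6 of the 22, all lower, and leaving out a single library left between 8 and 10 lower calls. The summed level of the list was 2290 and 2249 CPM with DMSO and 1425 and 1489 with GSK715.

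EGR1 (chr5:138465490-138469315, plus strand), an immediate-early zinc finger factor, moved most. It had 183 and 170.1 CPM with DMSO and 13.5 and 23.1 with GSK715, a log2 fold change of -3.27 (SE 0.17, adjusted p = 1.9e-19). The RefSeq GRCh38.p14 sequence of the 250 bases before its annotated start (chr5:138465229-138465478, plus strand) is shown because EGR1 is a textbook target of serum response factor. The capitals mark the CArG boxes that a search found, meaning CC, then 6 bases that are A or T, then GG, a pattern that reads the same on both strands. The search was chosen after the fold changes were seen.
EGR1: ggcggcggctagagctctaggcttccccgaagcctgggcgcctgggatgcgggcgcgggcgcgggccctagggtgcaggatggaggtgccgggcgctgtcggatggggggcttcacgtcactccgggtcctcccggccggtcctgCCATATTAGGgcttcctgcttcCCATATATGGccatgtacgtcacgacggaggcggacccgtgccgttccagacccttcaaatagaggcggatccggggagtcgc
The boxes lie 105 to 96 and 83 to 74 bases before the start. Such a box was found in 1.16% of all 35116 promoters searched over the same length, and in 1 of the 18 listed pathway genes that had a promoter sequence.

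FOS, the partner of JUN in AP-1, had 78.7 and 77.5 CPM against 30.3 and 28.6, a log2 fold change of -1.41 (SE 0.18, adjusted p = 6.8e-08). Its relative FOSL1 fell from 30.8 and 33.6 to 13.5 and 6.13 CPM, a call that DESeq2 and the fit without a filter did not make. Both EGFR ligands fell. AREG had 192 and 201 CPM against 88.2 and 78.3 (log2 fold change -1.24, SE 0.12) and EREG had 167 and 169 against 76.1 and 66.7 (log2 fold change -1.23, SE 0.13). The ERK phosphatases DUSP6, DUSP5 and DUSP4 fell. DUSP6 had 103 and 108 CPM against 45.1 and 35.4, with 40.5% of its exonic length shared with an overlapping gene, and DUSP5 had 171 and 186 against 90.2 and 105. DUSP4 had 126 and 129.6 CPM against 77.4 and 83, a call absent from DESeq2 only. EGR1, FOS, AREG, EREG, DUSP6 and DUSP5 held in every setting. The receptor EGFR itself had 41.2 and 39.1 CPM against 22.9 and 22.5 and was called lower, but this call was lost with each library left out, in DESeq2 and without a filter. Other feedback genes did not pass: SPRY4 had 19.1 and 16.5 CPM against 14.8 and 14.3 (adjusted p = 0.65), and ETV5, a transcription factor downstream of ERK, 24.6 and 24 against 20.2 and 24.5 (adjusted p = 0.84). Members of the lists beyond the top 3 by adjusted p on each side were chosen after their values were seen.

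**Figure D3:**
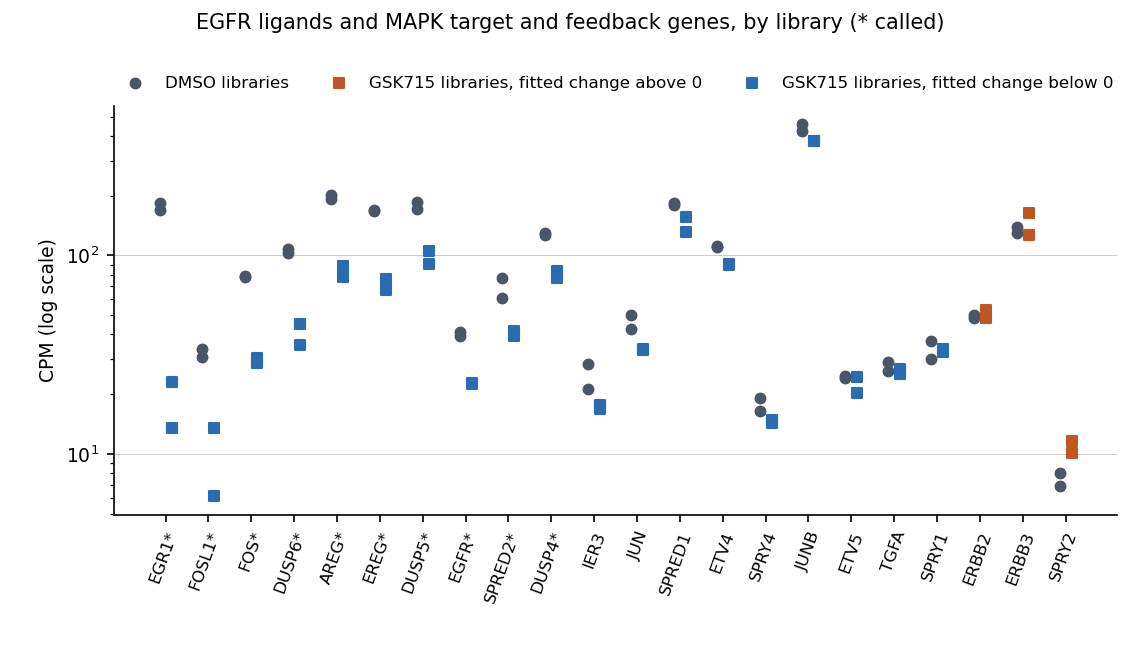
Level of each of the 22 tested EGFR and MAPK pathway genes in the 4 libraries, in CPM on a log axis, DMSO and GSK715 libraries as separate symbols, with called genes starred. The 10 starred genes all lie lower with GSK715, EGR1 by the widest gap.

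Of 25 listed p53 targets, 5 fell and none rose, where 4.51% of all genes fell, with a median log2 fold change of -0.35. DESeq2 called 2 of them, and leaving out one library left 3 to 5. GDF15, a secreted stress hormone, fell from 343 and 346 to 117 and 126 CPM, a log2 fold change of -1.50 (SE 0.11, adjusted p = 3.4e-15). GADD45A, a growth arrest protein, fell from 99.1 and 93.3 to 45.8 and 48.3 CPM. CDKN1A, the cyclin-dependent kinase inhibitor p21, fell from 47.4 and 43.9 to 20.2 and 18.4 CPM. GDF15 and GADD45A held in every setting and CDKN1A in all but DESeq2.

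Of 26 ATF4 pathway genes, which answer amino acid shortage, 9 fell and 1 rose, against 4.51% and 4.29% of all genes (median -0.34). This count rested on single libraries: 1 lower call was left without the first DMSO library, 3 without the second and 4 without the first GSK715 library, and DESeq2 called 1 lower and 1 higher. The gene that held on the lower side was DDIT3, the stress factor CHOP, with 109 and 107 CPM against 47.1 and 48.3 (log2 fold change -1.18, SE 0.15, adjusted p = 6e-08), although 39.6% of its exonic length overlaps another gene. The gene that rose was NUPR1, a small stress-induced chromatin protein, with 81.8 and 98.1 CPM against 222 and 208 (log2 fold change 1.26, SE 0.12, adjusted p = 3.4e-11). SLC7A11, the cystine transporter, had 173 and 165 CPM against 100.3 and 125, and its partner SLC3A2 had 153 and 151 against 103 and 117. Both were called lower, and both calls were lost in DESeq2, without the filter and without the first DMSO library. The SLC3A2 call was less stable, made in 9 of 14 settings against 11 of 14 for SLC7A11. Of 22 ER chaperones and degradation factors 6 fell, with 0 called in DESeq2, without the filter or without the first DMSO library, 1 without the second, 3 without the first GSK715 library, and 10 at an unadjusted p under 0.05. Across all 15877 genes tested, 3421 had an unadjusted p under 0.05. HSPA5, the ER chaperone BiP, had 94.1 and 82.3 CPM against 60.6 and 60.6, and XBP1, an unfolded protein response factor, 475 and 414 against 358 and 348.

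Of 24 glycolysis and hypoxia genes, 11 fell and none rose (median -0.27), with 4 lower calls in DESeq2, 5 without the first DMSO library, 7 without the second and 4 without the low-count filter. By comparison, 4.51% of all genes fell. SLC2A1, the glucose transporter GLUT1, had 317 and 311 CPM against 147 and 151, a log2 fold change of -1.07 (SE 0.10, adjusted p = 7.2e-11). LDHA, which makes lactate, fell from 314 and 326 to 183 and 202 CPM, and PFKP, a phosphofructokinase, from 102 and 115 to 55.2 and 52.4 CPM. NDRG1, a hypoxia-responsive gene, fell from 345 and 359 to 213 and 182 CPM, whereas it rose in short reads. These 4 genes held in every setting, and in each the groups were separated by a wide margin. VEGFA, the angiogenic growth factor, had 114 and 104 CPM against 64.7 and 82.4, a call lost in DESeq2, without the filter and without the first library of either group.

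Of 79 cytosolic ribosomal protein genes tested, 28 rose and none fell, where 4.29% of all genes rose. The list's median log2 fold change was 0.24, and 65 of the 79 had both GSK715 libraries above both DMSO libraries, as did 24.6% of all genes tested. Their summed share of the counts was 14.1% and 13.7% with DMSO and 16.1% and 15.2% with GSK715. With changes this small the calls followed the libraries used: 4 rose without the first DMSO library, 2 without the second, 14 without the first GSK715 library and 50 without the second. DESeq2 called 17 higher, and the fit without a filter called 3. Scaling by library totals gave 32 higher and 1 lower. RPL37 rose from 185 and 152 to 273 and 296 CPM (log2 fold change 0.75, SE 0.11) and RPS15A from 532 and 489 to 828 and 779 CPM (log2 fold change 0.65, SE 0.09), and both held in every setting. RPS9 rose from 604 and 589 to 845 and 811 CPM, a call lost when either DMSO library was left out. Most ribosomal protein genes have processed pseudogenes that share their sequence, so single values are uncertain.

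Ribosomal protein and translation factor transcripts are known for a terminal oligopyrimidine (TOP) tract, a cytosine at the first base followed by a run of pyrimidines, through which their translation is controlled. RefSeq GRCh38.p14 start sites are shown for a few genes that rose and carry it, 15 bases before and 15 bases from the annotated start, with the tract in capitals. The tract was defined as C at the start followed by at least 4 bases that are all C or T, read on the gene's strand, and this search too was chosen after the fold changes were seen.
RPS9 (chr19:54200843-54200872, plus strand): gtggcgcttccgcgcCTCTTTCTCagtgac
RPS12 (chr6:132814554-132814583, plus strand): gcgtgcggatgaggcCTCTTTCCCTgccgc
EEF1A1 (chr6:73521018-73521047, minus strand): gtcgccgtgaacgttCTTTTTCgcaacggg
SNHG5 (chr6:85678719-85678748, minus strand): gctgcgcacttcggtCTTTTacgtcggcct
The tract stood at 4.07% of 35116 annotated starts (1429 of them). It was present at 47 of the 63 ribosomal protein genes with a sequence, at 13 of 29 translation factors, at 7 of 16 small nucleolar RNA host genes and at 0 of 18 EGFR and MAPK pathway genes. Of the 705 tested genes with the tract, 49 rose (6.95%) and 33 fell (4.68%). Of the 8460 matched genes without it, 209 rose (2.47%) and 459 fell (5.43%). Outside the 3 lists named, 638 tested genes had the tract, of which 27 rose and 33 fell. Within the ribosomal protein list 16 of 47 genes with the tract rose, and 5 of 16 without it. Transcript length and level differed too: the genes with the tract had a median length of 2089 bases and a median of 36.9 CPM, against 2430.5 bases and 26.8 CPM without it. Among transcripts of up to 1000 bases, 16 of 123 with the tract rose (13%) and 6 fell, and 36 of 911 without it rose (3.95%) and 68 fell.

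Of 37 translation factors, 8 rose and none fell (median 0.10), with 2 higher in DESeq2, 2 without the first DMSO library, 1 without the second and 5 without the first GSK715 library. Scaling by library totals gave 8 higher and 3 lower. Across all genes tested, 4.29% rose. EEF1A1, the elongation factor that delivers aminoacyl-tRNA, rose from 3296 and 3043 to 4424 and 4358 CPM, a call lost when either DMSO library was left out, and it has many pseudogene copies. EIF2S3, a subunit of the initiation factor eIF2, rose from 171 and 138 to 201 and 231 CPM, a call lost in DESeq2, without a filter and without the second DMSO library. EIF5, which triggers the hydrolysis step of initiation, had 139.7 and 144 CPM against 205 and 205 and was called higher, with a call lost in DESeq2, without a filter and without the first DMSO library. It was lower in short reads.

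The host genes of small nucleolar RNAs, spliced noncoding RNAs whose introns carry the guides of ribosomal RNA modification, were also higher. Of 19 tested, 7 rose and none fell (median 0.45), with 5 to 7 higher when one library was left out and 4 in DESeq2. By comparison, 4.29% of all genes rose. SNHG7 rose from 250.4 and 219 to 544 and 512 CPM (log2 fold change 1.17, SE 0.097, adjusted p = 8.8e-13). SNHG29 rose from 175 and 181 to 427 and 378 CPM (log2 fold change 1.18, SE 0.10, adjusted p = 2.2e-12). SNHG25 rose from 19.1 and 12.3 to 75.4 and 72.1 CPM and SNHG3 from 289.8 and 294 to 541 and 485 CPM, although SNHG3 was lower in short reads. All 4 held in every setting, and all 4 overlap exons of other genes over 11% to 48.6% of their length. SNHG5 had 36.9 and 30.9 CPM against 53.2 and 57.9, a call lost in 5 settings. SNHG15 had 19.1 and 15.1 CPM against 21.6 and 12.9, with groups that overlap (adjusted p = 1). Among 11 other listed long noncoding RNAs tested, 4 rose and none fell, with 2 higher in DESeq2 and 2 without the first DMSO library. DANCR had 191 and 192 CPM against 321 and 284 and held in every setting, though 11.9% of its exonic length overlaps another gene. NEAT1, the scaffold of paraspeckles, had 49.8 and 45.9 against 84.9 and 100, not called by DESeq2. MALAT1, a nuclear RNA of splicing speckles, had 2013 and 1985 CPM against 2610.4 and 2975, a call lost when either DMSO library was left out.

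Of 13 protein-coding mitochondrial genes, 6 rose and none fell (median 0.28, lowest -0.09, with 10 of 13 above 0), with 5 higher in DESeq2, 2 without a filter, 2 without the first DMSO library, 2 without the second and 8 without the first GSK715 library. Across all genes tested, 4.29% rose. MT-CO1, a subunit of cytochrome c oxidase, had 2778 and 2420 CPM against 3839 and 4287, a log2 fold change of 0.64 (SE 0.095, adjusted p = 2.5e-06). MT-ND3, a subunit of complex I, rose from 169 and 142 to 249 and 243 CPM. Both held in every setting. All mitochondrially encoded genes together took 1.97% and 1.95% of the counts with DMSO and 2.31% and 2.44% with GSK715. Of 60 nuclear genes of the respiratory chain 3 rose and 3 fell, near the shares of all genes that rose (4.29%) and fell (4.51%). Library totals gave 3 higher and 10 lower, leaving out either DMSO library gave 0 higher and 1 lower, leaving out the first GSK715 library 1 higher and 5 lower, and the second 4 higher and 1 lower. NDUFB8, lower at 161 and 146 CPM against 92.9 and 84.4, was the lower call that held in every setting, though 48.5% of its exonic length overlaps another gene.

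Of 22 NRF2 and glutathione genes 4 rose and 1 fell, with 2 higher without the first DMSO library and 1 higher and 0 lower without the second. Across all genes tested, 4.29% rose and 4.51% fell. FTL, the ferritin light chain, rose from 1311 and 1268 to 2067 and 1867 CPM (log2 fold change 0.61, SE 0.09, adjusted p = 2.6e-06) and held in every setting. GPX2, the gut glutathione peroxidase, had 1246 and 1176 CPM against 1794 and 1603, a call lost when either DMSO library was left out, and it was lower in short reads.

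The enzyme targeted by the inhibitor did not pass the test. PRMT1 (chr19:49675786-49689029, plus strand) had 152 and 147 CPM with DMSO and 155 and 126 with GSK715, a log2 fold change of -0.09 (SE 0.12, adjusted p = 0.73), and its groups overlap. PRMT5, the main type II enzyme, had 20.3 and 24.7 CPM against 20.9 and 20.4 (log2 fold change -0.12, SE 0.26, adjusted p = 0.86), with 27.1% exonic overlap. The edgeR test of the short reads called both lower, PRMT1 by -0.12 (adjusted p = 0.0027) and PRMT5 by -0.51 (adjusted p = 4.6e-07) on the log2 scale. Neither difference between read types passed. An inhibitor acts on the protein, so these levels do not check its action. Among 9 listed PRMT enzymes and partners, 1 rose: CLNS1A, a partner of PRMT5, had 241 and 246 CPM against 306 and 294 (log2 fold change 0.30, SE 0.098, adjusted p = 0.044). This call was lost in 6 settings, library totals and DESeq2 among them.

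Splicing regulators, many of them known substrates of type I enzymes, changed in both directions. Of 34 SR and hnRNP factors 3 rose and 4 fell (median -0.11), where 4.29% of all genes rose and 4.51% fell. Among the 34, 11 had an unadjusted p under 0.05, as did 3421 of all 15877 genes tested. DESeq2 and the fit without a filter called 0, leaving out the first DMSO library gave 1 higher and 1 lower, and leaving out the second gave 1 higher and 2 lower. SRSF5 rose from 98.4 and 98.7 to 166 and 146 CPM and HNRNPA1 from 299.6 and 294 to 403 and 389 CPM. SRSF2, an SR protein, fell from 107 and 104 to 70.7 and 68.7 CPM, with 36.7% exonic overlap. All of these were lost without the low-count filter; leaving out the first DMSO library lost HNRNPA1 and SRSF2, and leaving out the second lost HNRNPA1. RBM3, a cold-induced RNA-binding protein, rose from 91.1 and 101 to 168 and 157 CPM and held in every setting. Of 31 snRNP and core spliceosome genes 1 fell, no more than the share over all genes.

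Genes of cell identity and adhesion moved in both directions. Their counts stand beside the 4.29% of all genes that rose and the 4.51% that fell. Of 7 keratins tested 2 rose, KRT8 and KRT18, and 3 fell. KRT80 had 23.4 and 42.5 CPM against 14.8 and 12.3, KRT17 had 153 and 160.5 against 112 and 108, and KRT20, a keratin of differentiated colon epithelium, 161 and 202 against 144 and 115. None of these 3 decreases was called by DESeq2, without the filter or without the second DMSO library, and the list gave 1 higher and 2 lower without the first DMSO library. KRT17 was also lost without the first DMSO library and KRT20 without the second GSK715 library. Of 26 CEACAM and adhesion genes 1 rose and 6 fell, with 3 lower without the first DMSO library, 4 without the second, 4 without the second GSK715 library and 1 in DESeq2. CEACAM1 had 92.3 and 89.8 CPM against 39.1 and 54.4, and CEACAM6 had 99.7 and 114 against 57.2 and 70.1. CEACAM5, the carcinoembryonic antigen, had 44.9 and 48.7 against 22.9 and 21.8, with 16.2% exonic overlap. These 3 calls were made with each library left out and were absent from DESeq2 and from the fit without a filter, and CEACAM1 was higher in short reads. The gel-forming mucin MUC5AC fell from 478 and 564 to 275 and 262 CPM (log2 fold change -0.95, SE 0.098, adjusted p = 4.2e-10), and the membrane linker EZR from 399.9 and 416 to 290.3 and 262 CPM. DKK1, a secreted inhibitor of Wnt signalling, fell from 62.8 and 63.8 to 26.9 and 23.8 CPM, and MMP7, a matrix protease, rose from 142 and 147 to 241 and 210.3 CPM. MUC5AC, EZR, DKK1 and MMP7 held in every setting.

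Of 16 NF-kB and chemokine genes 2 rose and 1 fell, with 1 higher without the first library of either group. For this and the next lists, 4.29% of all genes rose and 4.51% fell, and 3421 of 15877 had an unadjusted p under 0.05. In short reads 33.6% of all genes rose and 32.2% fell. NFKBIA, the inhibitor of NF-kB, rose from 40.6 and 39.8 to 76.8 and 89.2 CPM. LCN2, the siderophore-binding lipocalin, fell from 727 and 712 to 339 and 321 CPM (log2 fold change -1.13, SE 0.092, adjusted p = 5.5e-13). Of 30 interferon-stimulated genes 2 rose and 5 fell, with 1 higher and 2 lower without the first DMSO library, and 0 higher and 1 lower without the second. IFITM1, an antiviral membrane protein, fell from 37.5 and 28.8 to 8.76 and 8.85 CPM, while its neighbour IFITM2 rose from 239 and 215 to 348 and 297 CPM. Overlapping exons make up 32.5% and 22.7% of their length, so both are uncertain. NFKBIA, LCN2 and IFITM1 held in every setting, and IFITM2 was lost in DESeq2, without a filter and without the second DMSO library. Of 14 genes of MHC class I presentation 3 rose and none fell (13 of 14 fold changes were above 0, median 0.27, and in short reads 12 rose and 1 fell), with 0 higher when either DMSO library or the first GSK715 library was left out, 1 in DESeq2, and 5 at an unadjusted p under 0.05.

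Proliferation genes were covered by a mitosis and a DNA replication list. Of 30 mitosis genes 3 fell and none rose (median -0.22), where 4.51% of all genes fell. Among the 30, 8 had an unadjusted p under 0.05. Of all 15877 genes tested, 3421 did, which is the count to set beside the unadjusted counts of this and the next lists. Leaving out the first GSK715 library left 1 lower, leaving out any other single library left 0, and DESeq2 called 0. Scaling by library totals gave 5 lower. CENPA, the histone H3 variant of centromeres, had a log2 fold change of -0.69 (SE 0.21, adjusted p = 0.028). PRC1, a spindle midzone protein, had -0.53 (SE 0.17, adjusted p = 0.04), with 58.4% exonic overlap. Of 37 DNA replication genes edgeR and DESeq2 called 0, and 7 had an unadjusted p under 0.05. Their median log2 fold change was -0.01, with a range from -0.54 to 0.66. Of 20 cytosolic heat shock chaperones both tools called 0, and 5 had an unadjusted p under 0.05. Of 14 listed histone genes tested 2 rose and 1 fell, and fewer were higher when either DMSO library was left out. The gene that fell was H3-3B (log2 fold change -0.33, adjusted p = 0.015), a call absent from DESeq2. It encodes a replication-independent histone variant, so no replication-dependent histone gene of the list was called lower. H2AC6, a histone H2A gene, at 22.1 and 17.8 CPM against 53.2 and 51.7, was the increase that held in every setting.

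Over all genes tested, 4.29% rose and 4.51% fell. By gene class, protein-coding genes other than ribosomal and mitochondrial ones gave more decreases than increases, 569 (5.5%) against 268 (2.59%) of 10350 tested. IDs of the table that are not from Ensembl (numbered names such as novel9), for which no coordinates were used here, gave 256 increases and 75 decreases of 3361 tested. These were 7.62% and 2.23% of those IDs. Long noncoding genes gave 76 increases (6.05%) and 46 decreases (3.66%) of 1256, closer to the shares over all genes. The share of counts on IDs not from Ensembl was 9.31% and 8.49% with DMSO and 9.62% and 9.81% with GSK715. Across 10029 genes of at least 10 CPM, the fold change was nearly unrelated to transcript length (Spearman's rho -0.02, a description across genes, which are not independent). The same measure between the GSK715 libraries, second minus first, was 0.128. Both GSK715 libraries had shorter reads than the DMSO libraries, and the part of read length in the fold changes of single genes was not tested.

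The 6 short-read libraries of the same line, dose and time offered replicates that the ONT test did not use. Their own test called 12727 of 19340 genes (65.8%; 33.6% higher and 32.2% lower). The labels do not say whether ONT and short-read libraries shared cultures, and the tables were made separately. Of 1010 ONT calls that could be tested in short reads, 782 passed there with the same sign, 112 passed with the opposite sign and 116 did not pass. The same sign, passed or not, was seen for 84.1% of the ONT calls and for 61.6% of all 11602 genes tested in both. Of the 118 genes called in every ONT setting and tested in short reads, 109 passed with the same sign, 6 passed with the opposite sign and 3 did not pass. The fold change was smaller in ONT than in short reads for 521 of the 782 genes. The median absolute log2 fold change of these 782 was 0.73 in ONT and 1.09 in short reads.

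**Figure D4:**
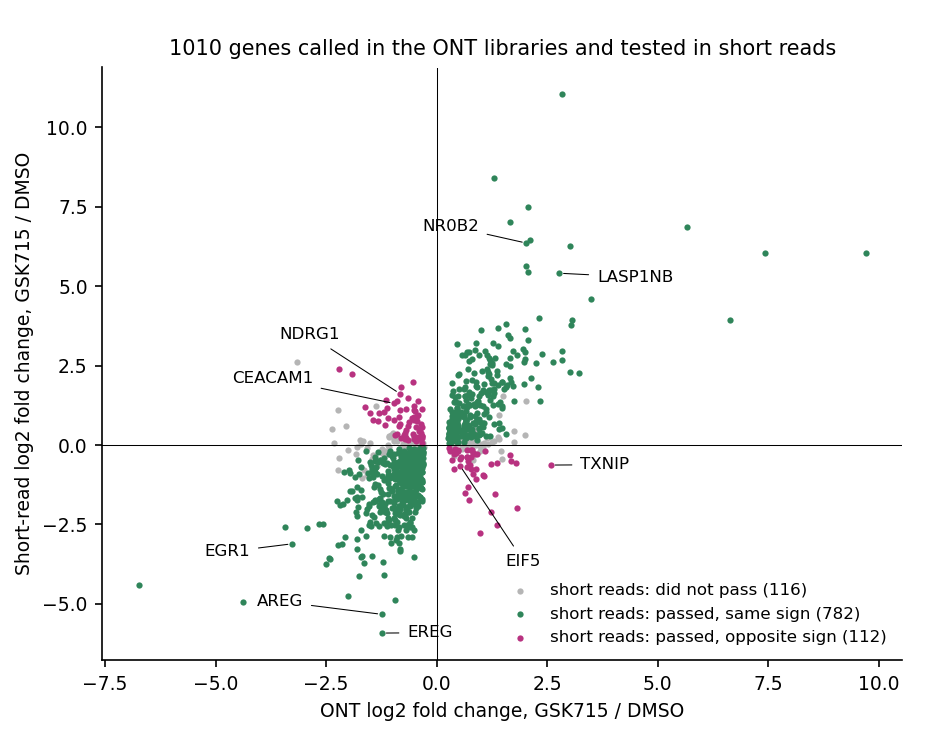
Log2 fold change with GSK715 in ONT (horizontal axis) against short reads (vertical axis) for the 1010 genes called in ONT and tested in both. Green points (782) passed in short reads with the same sign, magenta points (112) with the opposite sign, and grey points (116) did not pass there.

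A joint fit over both read types tested the difference between the responses itself and called 4872 of 11974 genes (40.7%). EGR1 had 55.8 ± 2.61 CPM (SD, n = 3) in short reads with DMSO and 6.45 ± 1.35 (SD, n = 3) with GSK715, a log2 fold change of -3.11. The ONT response minus the short-read response was -0.21 (SE 0.30, adjusted p = 0.60), which did not pass. For the EGFR ligands the difference passed. AREG went from 596 ± 14.5 to 14.8 ± 0.95 CPM (SD, n = 3) in short reads, a log2 fold change of -5.33 against -1.24 in ONT, a difference of 4.04 (SE 0.12, adjusted p = 1.1e-12). EREG went from 868 ± 63.2 to 14.3 ± 1.32 CPM (SD, n = 3), -5.92 against -1.23, a difference of 4.64 (SE 0.16, adjusted p = 4.9e-12). Both ligands fell in both read types, and the ONT fall was the smaller. KRT17 had a log2 fold change of -3.51 in short reads and -0.51 in ONT, a difference of 2.95 (SE 0.09, adjusted p = 1.1e-12). For DGCR11 and FGF19 the short-read log2 fold changes were 2.86 and -2.59, and the difference from ONT did not pass. LASP1NB and NR0B2 had larger fold changes in short reads, 5.41 and 6.36 on the log2 scale, with differences of -2.67 (adjusted p = 2.2e-06) and -4.33 (adjusted p = 1.7e-06). The short-read level of NR0B2 went from 0.0555 ± 0.01 to 4.68 ± 0.39 CPM (SD, n = 3), so its fold change there rests on a control level near 0.

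The list counts that follow stand beside the 33.6% of all genes called higher and the 32.2% called lower in short reads. The difference between read types passed for 40.7% of genes. Ribosomal protein genes gave 67 higher and 4 lower of 79 in short reads with a median of 0.27 against 0.24 in ONT. The EGFR and MAPK list gave 18 lower and 3 higher of 22 (median -1.19). The ATF4 list gave 24 lower and 1 higher of 26, with a median of -1.57 against -0.34 in ONT, and the difference passed for 25 of its 26 genes. All 30 mitosis genes were called lower in short reads (median -1.28), where 65.8% of all genes were called. In ONT, where 8.8% were called, 3 were called lower and only 7 of 30 fold changes were above 0 (median -0.22). The difference passed for 24 of the 30. SR and hnRNP factors gave 29 lower and 3 higher of 34 in short reads, and the difference passed for 25. Glycolysis and hypoxia genes, 11 of them lower in ONT, split into 12 higher and 11 lower of 24 in short reads with a median of 0. The small nucleolar RNA host genes split into 8 higher and 7 lower of 18.

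**Figure D5:**
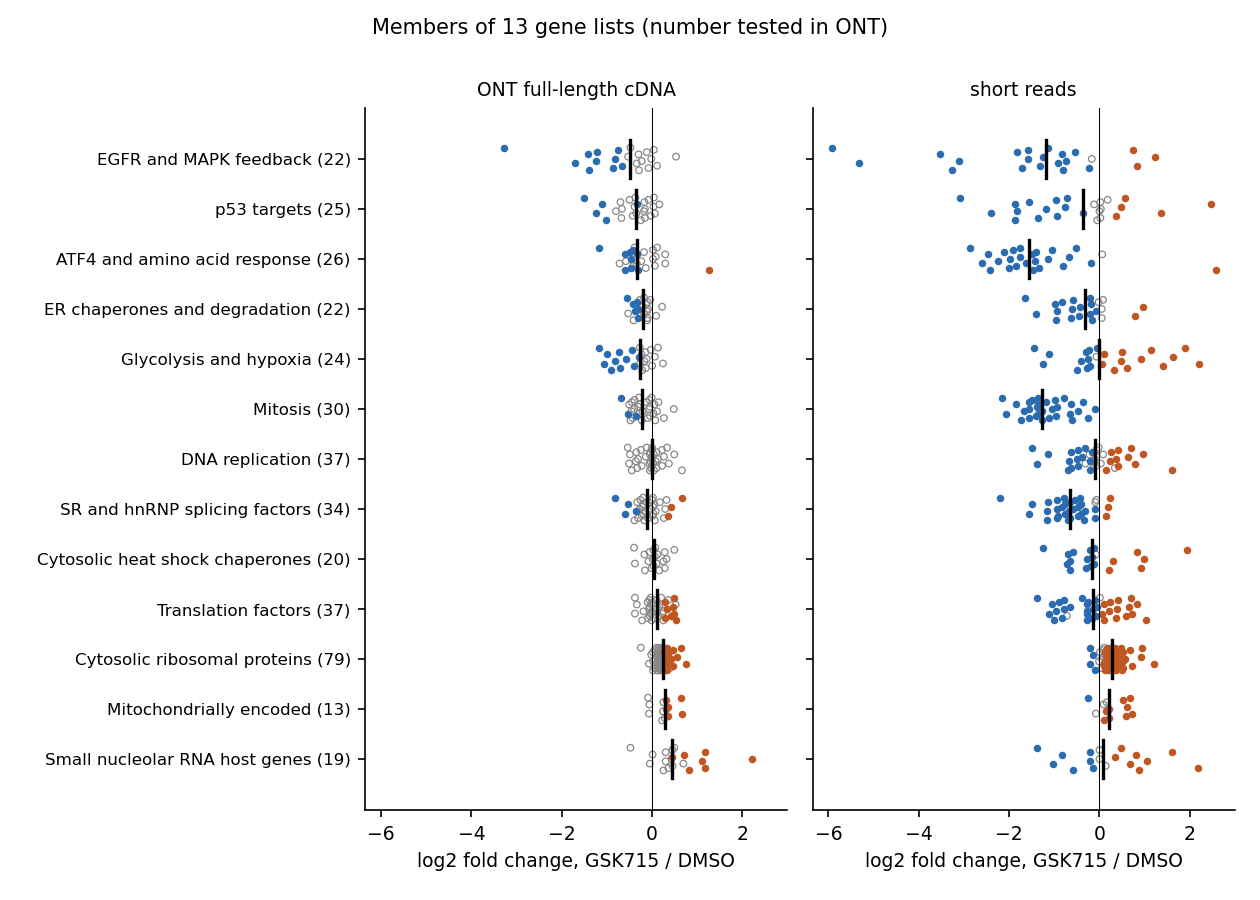
Log2 fold change, GSK715 minus DMSO, of the tested members of 13 gene lists (rows) in ONT (one panel) and short reads (the other panel) on the same horizontal axis. Filled orange and blue points passed the test as higher and lower, open points did not pass, and the black bar is the list's median; in the ATF4 row the median is -0.34 in ONT and -1.57 in short reads.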

How the data were processed

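Poly(A) RNA of WiDr cells was sequenced as full-length cDNA on a PromethION by the authors, per the labels. The submitters' processing notes name cutadapt, HISAT2, StringTie, DESeq2, minimap2, Salmon and GRCh38, without saying which served the ONT reads. The ONT table deposited by the authors holds estimated counts for 82890 IDs, 15.1% of the values not whole, and these were rounded. The percent of full-length reads and the read lengths were deposited by the authors per library. The short-read table deposited by the authors holds whole-number counts per gene. Columns headed NC were taken as DMSO, the other WiDr group in the labels. Total counts per library, 1449698 to 1667813, set the precision, and any interval on them covers counting error only.

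Genes were filtered with filterByExpr (minimum count 10, minimum total 15), scaled by TMM and tested with edgeR 4.0.16 (quasi-likelihood, Benjamini-Hochberg over all genes tested) in R 4.3.3. The difference between read types was tested as an interaction over 10 libraries. DESeq2 1.42.0, limma 3.58.1 (voom), other scalings and filters, leaving out IDs not from Ensembl or mitochondrial genes, a replicate block and leaving out each library were the alternatives. The DESeq2 fit took all IDs with any count, without filterByExpr. Exact permutation tests used SciPy 1.17.1. Gene names, coordinates and exonic overlap came from GENCODE 29 (GRCh38), where at least 10% overlap was called uncertain, since strand use in counting is not given in the sources used here. Promoter sequences came from RefSeq GRCh38.p14, matched by symbol for 9165 of 11369 tested genes with a symbol.

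The text names, among called genes with a symbol, at least 10 CPM and groups that do not overlap, the 10 largest changes each way, the 4 with the most counts each way, and the top 3 of each list by adjusted p each way, besides PRMT1 and PRMT5; other members were chosen after their values were seen. Some of these genes are not reported here. The members, the 36 gene lists and these rules were chosen with earlier results of these data known.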

Additional observations from a re-analysis of the deposited data

Results flagged for a closer look

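Among the genes named, 14 passed the test in both read types with opposite signs, and the test of the difference itself passed for each. Values are log2 fold changes, GSK715 minus DMSO, and the difference is ONT minus short reads. TXNIP, the thioredoxin-binding regulator of glucose uptake, had 2.59 in ONT and -0.63 in short reads, a difference of 3.18 (SE 0.14, adjusted p = 9.1e-11); its short-read level was 929 ± 8.01 CPM with DMSO and 599 ± 13.6 with GSK715 (SD, n = 3). NXN, a nucleoredoxin, had 0.99 and -2.78, a difference of 3.72 (SE 0.15, adjusted p = 4.6e-11). Its ONT levels were 79.4 and 68.6 CPM with DMSO and 158 and 137 with GSK715, and its short-read levels 78.4 ± 1.41 and 11.4 ± 1.4 CPM (SD, n = 3). BRAF, the kinase between RAS and MEK, had 1.08 and -0.96, a difference of 1.99 (SE 0.14, adjusted p = 1e-08), with 37.5 and 38.4 CPM against 83.5 and 76.9 in ONT. DOCK1, an activator of RAC, had 1.69 and -0.50, a difference of 2.15 (SE 0.21, adjusted p = 6.8e-07). NXN, BRAF and DOCK1 were chosen after their values were seen, and with TXNIP they held in every ONT setting.

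On the lower side in ONT, NDRG1 had -0.83 and 1.62 in short reads, a difference of -2.51 (SE 0.084, adjusted p = 3.4e-12), and CEACAM1 had -0.96 and 1.31, a difference of -2.32 (SE 0.14, adjusted p = 1.8e-09). UQCR11, a subunit of complex III, had -0.39 and 0.19, a difference of -0.63. Smaller opposite pairs on the higher side in ONT were the initiation factor EIF5 (difference 1.13), the host genes SNHG8 (1.25) and SNHG3 (0.91), the splicing factor HNRNPL (0.79), the glutathione peroxidase GPX2 (0.63), the complex I subunit NDUFV2 (0.63) and the helicase DDX17 (0.49). The ONT calls of HNRNPL, UQCR11, NDUFV2 and DDX17 were lost in 5 or more settings. In these 14 genes the sign of the response differed by read type, and the cause was not tested.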

How the results depend on the processing

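With 2 libraries a group, the number of calls moved with the filter, with single libraries and under DESeq2, which was run without the low-count filter. DESeq2 called 229 genes (127 higher, 102 lower) and edgeR without that filter 251 (141 higher, 110 lower), against 1397. The DESeq2 setting changed tool and filter together, and the cause was not tested. Leaving out one library in turn gave 464 to 1058 calls, 236 to 571 higher and 228 to 509 lower, and 3865 to 3946 calls of the difference between read types. Of the calls, 316 were made with each of the 4 libraries left out. TMM against RLE factors, library totals, voom, unrounded values and a minimum count of 30 gave 1273 to 1583. Of the 123 named calls, 44 held in every setting; library totals ended those of CLNS1A, AHCY, HNRNPL, SREBF1 and SCD. Signs turned for PRMT1 (-0.25 to 0.06 with one library left out) and PRMT5 (-0.26 to 0.02), neither of them called, and for list medians near 0. With library totals these were the heat shock (-0.01), stress granule (-0.01) and nuclear respiratory chain (-0.02) lists. With one library left out they were the respiratory chain (0.03 to -0.05), ribosome biogenesis (-0.04 to 0.04), DNA replication (-0.01 to 0.04) and histone lists (-0.12 to 0.07), and with Ensembl IDs alone DNA replication and methionine (-0.01 to 0.01 for both). The snRNP median (-0.03 to 0 with one left out) and those of the NRF2 and CEACAM lists reached 0, and the colon epithelium median of 0 moved between -0.13 and 0.02. Among ONT calls of at least 2-fold, 87.3% had the same sign in short reads. Leaving out one library moved the difference in mean read length between -95.1 and -30.1 bases, in the full-length share between 0.575 and 1.67 points, in the ribosomal protein share between 1.32 and 2.18 points, in the mitochondrial share between 0.346 and 0.476 points and in the share of IDs not from Ensembl between 0.404 and 1.22 points. With the replicate number as a block, 1706 genes were called (856 higher, 850 lower) and 4786 differences between read types; the same-numbered libraries did not deviate together (Pearson's r -0.005 across 12972 genes), so the numbers were not taken as pairs. At this depth a gene needs about 10 counts in 2 libraries to be tested, and replicates differed by 1.58 (DMSO) and 1.37 (GSK715) times the counting variance.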

Other observations

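Among the IDs of the authors' table that are not from Ensembl, novel2986 had 1.85 and 5.49 CPM with DMSO and 38.4 and 42.2 with GSK715, and novel2439 had 4.31 and 4.11 against 36.4 and 41.5. The ID novel3070 had 31.4 and 49.4 CPM against 2.69 and 4.08, and novel3065 had 52.3 and 48.7 against 10.8 and 6.13. All 4 were called by edgeR and DESeq2 and held in every setting. The ID of this kind with the most counts, novel9, had 20484 and 9672 CPM with DMSO and 15643 and 17097 with GSK715 (adjusted p = 0.72), and it took 2% and 0.973% of the counts of the DMSO libraries. No coordinates of these IDs were used here, so their genes are not named.

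Called IDs with a group at 0 numbered 5, of which 4 had 0 counts in both DMSO libraries and 1 in both GSK715 libraries. ENSG00000279766 had 0 and 0 counts with DMSO and 110 and 93.7 with GSK715, at least 68.3-fold higher when the DMSO group is set at the floor of 3 counts in all. TRAPPC12-AS1 (chr2:3481242-3482409, minus strand), an antisense gene, had 17.5 and 10 counts with DMSO and 0 and 0 with GSK715, at least 9.12-fold lower with the GSK715 group set at that floor. It was also lower in short reads, with 1.41 ± 0.19 CPM against 0.0637 ± 0.0557 (SD, n = 3). Both IDs were chosen after their values were seen.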
